A study of Mus musculus with 2 samples.

Results

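The cells described here are 508 CD4 T cells of the mouse colon that carried RNA of the chemokine receptor Cxcr5 or of the cytokine Il21, among 24391 barcodes that passed the quality filters of a single-cell RNA-sequencing study of sorted CD45+ colon cells. Each member had at least 1 unique molecular identifier (UMI, 1 counted RNA molecule) of Cd4, of Cd3e or Cd3g, and of Cxcr5 or Il21. None had a UMI of Il17a, Il17f, Il23r, Foxp3, Cd8b1 or Cd79a, and the proliferation genes Mki67 and Top2a together stayed under 3 UMIs. Measured values thus chose the cells, so the levels of these genes describe the choice and nothing more. The working label was follicular helper CD4 T cells. Of the markers outside the rule, Tox2 and Bcl6 were above other CD4 T cells in the members with Cxcr5 and near or below them in those with Il21 alone. Other markers, such as Pdcd1 and Cd40lg, were lower with Cxcr5 than with Il21 alone. The label is thus only partly met, and the cells are called by their genes here: Cxcr5 or Il21 members.

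The study, titled as a survey of intestinal macrophages in wild-type mice and in mice lacking CD163+ macrophages, has 2 libraries, CD163_NC and CD163_FL. No label used here says which library is wild-type and which deficient, so the libraries are named as deposited. The sources used here do not give how the macrophages were depleted, how many mice were pooled per library, or their strain and age. Live cells (7-AAD negative) from a Percoll interphase were sorted for CD45 and run on 10x 3' chemistry. With 1 library per group there is no replicate: every interval below is a 95% interval of counting error only, no test was made, and any difference between the libraries cannot be told apart from a difference between mice, sorts or libraries.

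Follicular helper T cells are the CD4 T cells that enter B cell follicles and help B cells in germinal centers. CXCR5 draws them toward CXCL13 made in the follicle, IL-21 acts on B cells there, and CD40 ligand and ICOS take part in the contact with B cells. The transcription factor BCL6 drives the program and is opposed by BLIMP1, the product of Prdm1. In the intestine they support IgA responses in Peyer's patches and isolated lymphoid follicles, and IL-21 is also made by other activated CD4 T cells.

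Cxcr5 (ENSMUSG00000047880) lies on the minus strand of chromosome 9 at 44511787 to 44561877, and Il21 (ENSMUSG00000027718) on the minus strand of chromosome 3 at 37222759 to 37232636, in GRCm38 gene models. The promoters of Il21, Bcl6 and Ifng are shown because Il21 chose members and because Bcl6 and Ifng differ between the members with Cxcr5 and those with Il21 alone. All are RefSeq sequences of 300 bases on GRCm38.p6, read 5′ to 3′ on the gene's strand: Il21 at chr3:37232587-37232886, Bcl6 at chr16:23988803-23989102 and, for a second start, at chr16:23981234-23981533 (all minus strand), and Ifng at chr10:118440796-118441095 (plus strand). Capitals mark matches, on either strand, to GGAAA, the core bound by NFAT factors, and to TTCNNNGAA, the spaced repeat bound by STAT factors.
Il21: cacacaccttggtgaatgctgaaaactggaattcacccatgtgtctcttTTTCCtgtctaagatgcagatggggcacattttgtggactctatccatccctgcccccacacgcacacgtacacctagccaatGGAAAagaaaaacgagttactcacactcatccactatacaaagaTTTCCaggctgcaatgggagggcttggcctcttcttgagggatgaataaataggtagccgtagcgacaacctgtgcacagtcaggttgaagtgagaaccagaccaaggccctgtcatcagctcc
Bcl6 (start 1): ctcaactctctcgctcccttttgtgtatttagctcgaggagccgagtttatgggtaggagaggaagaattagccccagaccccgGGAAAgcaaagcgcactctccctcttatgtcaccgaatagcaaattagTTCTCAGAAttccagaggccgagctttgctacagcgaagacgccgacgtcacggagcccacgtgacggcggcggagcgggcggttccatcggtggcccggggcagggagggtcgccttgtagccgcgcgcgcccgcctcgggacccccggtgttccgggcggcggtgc
Bcl6 (start 2): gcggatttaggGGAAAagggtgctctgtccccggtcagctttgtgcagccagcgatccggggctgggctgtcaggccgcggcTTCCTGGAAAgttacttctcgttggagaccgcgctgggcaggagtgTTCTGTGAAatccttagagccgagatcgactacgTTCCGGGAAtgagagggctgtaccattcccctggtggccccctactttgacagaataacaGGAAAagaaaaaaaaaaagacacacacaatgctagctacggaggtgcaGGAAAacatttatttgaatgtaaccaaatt
Ifng: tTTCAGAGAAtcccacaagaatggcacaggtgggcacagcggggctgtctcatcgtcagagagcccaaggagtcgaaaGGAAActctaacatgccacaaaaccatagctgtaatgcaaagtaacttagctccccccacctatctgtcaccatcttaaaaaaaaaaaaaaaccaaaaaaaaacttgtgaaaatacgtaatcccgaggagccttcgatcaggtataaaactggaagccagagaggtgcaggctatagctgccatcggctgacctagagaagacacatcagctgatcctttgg
The Il21 window held 3 NFAT matches and 0 STAT matches. The first Bcl6 window held 1 of each, and so did the Ifng window. The second Bcl6 window held 4 NFAT and 3 STAT matches, of which 1 pair overlapped. Among 32851 promoter windows of this length, 61.3% held the NFAT letters and 8.30% the STAT letters, so matches of the first kind are the rule. A match describes these letters and is not evidence of binding.

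CD163_NC gave 341 members and CD163_FL gave 167, although CD163_FL had more kept barcodes (14379 against 10012). Members were 3.41% (3.06 to 3.78) of kept barcodes in CD163_NC and 1.16% (0.993 to 1.35) in CD163_FL, a ratio of 0.341 (0.284 to 0.410). CD4 T cells as a whole made up 14.1% and 16.5% of kept barcodes, a ratio of 1.17 (1.10 to 1.24), and the order turned at equal depth, with a ratio of 0.961 (0.877 to 1.05) thinned to 2000 UMIs and 0.816 (0.710 to 0.939) thinned to 1000. Of CD4 T cells, 24.2% (22 to 26.5) and 7.05% (6.05 to 8.15) were members, a ratio of 0.291 (0.245 to 0.346).

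Depth favored CD163_FL, where members had a median of 8531 UMIs and 2789 genes, against 6644 UMIs and 2424 genes in CD163_NC. To compare shares at equal depth, each barcode was thinned to 2000 UMIs, which left out 1066 of the kept barcodes in CD163_NC and 876 in CD163_FL. At that depth 93 of 713 CD4 T cells (13%, 10.7 to 15.7) were members in CD163_NC and 34 of 1034 (3.29%, 2.29 to 4.56) in CD163_FL, a ratio of 0.252. Free RNA in the droplets can be read in mononuclear phagocytes, which should lack both genes. They carried a Cxcr5 UMI in 1.59% of CD163_NC cells and 0.709% of CD163_FL cells. Il21 was seen in 0.353% and 0.203% of them, at median depths of 8245 and 7282 UMIs.

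**Figure D1:**
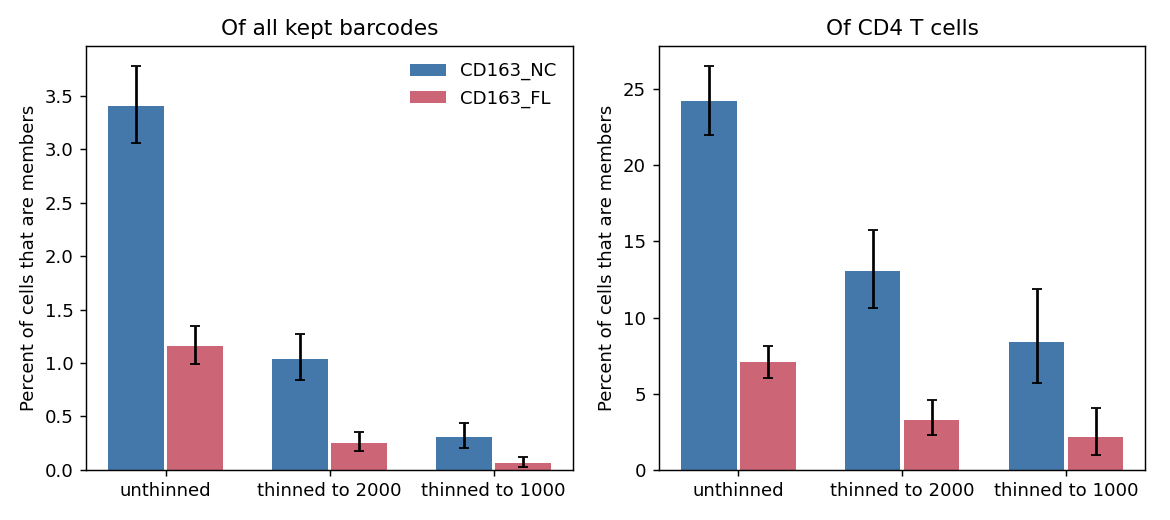
Share of cells that were Cxcr5 or Il21 members in CD163_NC (blue) and CD163_FL (red), in percent of all kept barcodes (left) and of CD4 T cells (right), with every UMI and after thinning each barcode to 2000 or 1000 UMIs. Bars are shares with exact binomial 95% intervals for counting error, and at each depth the CD163_FL bar is the lower one, 7.05% against 24.2% of CD4 T cells without thinning.

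Among the other CD4 gates, CD4 T cells with Foxp3, the regulatory T cell factor, were 3.69% and 2.24% of CD4 T cells, a ratio of 0.606 (0.416 to 0.883). Those with Il17a, Il17f or Il23r were 5.39% and 5.65%, a ratio of 1.05 (0.797 to 1.38). Both intervals lie above that of the members, though after thinning to 2000 UMIs the interval of the Foxp3 ratio (0.182 to 0.940) overlapped that of the members (0.172 to 0.369). The number of follicles in each dissection is not given, and its part in these shares was not tested.

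The composition of the members also differed. In CD163_NC, 130 members had Cxcr5 and no Il21 UMI, 169 had Il21 and no Cxcr5, and 42 had both. In CD163_FL the numbers were 68, 95 and 4. Cells with both genes were thus 12.3% (9.02 to 16.3) and 2.40% (0.656 to 6.02) of members, lower in the deeper library. The threshold was crossed by a single UMI of Cxcr5 or Il21 in 179 members of CD163_NC (52.5%) and 121 of CD163_FL (72.5%). Just outside it, at 0 UMIs of both genes, stood 856 and 1679 other CD4 T cells, the reference group used below. Cd79a alone kept out 84 and 28 further cells, and the limit on Mki67 and Top2a alone kept out 34 and 53.

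Il21 reached 30 UMIs in 1 cell of CD163_NC and 8 in 1 cell of CD163_FL, with 497 and 164 UMIs over all members. Cxcr5 reached 11 and 4 UMIs in a cell, with 311 and 92 in all. As CPM, a gene's UMIs scaled to a common total per group of cells, Il21 stood at 198 and 104 and Cxcr5 at 124 and 58.4, a description of cells selected for these genes. Outside the members, the Il17a, Il17f or Il23r gate had Il21 at 41.0 CPM in CD163_NC and 9.35 in CD163_FL. The Foxp3 gate had 2 Il21 UMIs in CD163_NC and 0 in CD163_FL.

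Among follicular helper markers that the rule did not use, Tox2 and Izumo1r were higher in members than in other CD4 T cells in both libraries. Bcl6 was higher in CD163_NC and only weakly so in CD163_FL. Others, such as Icos and Cd40lg, were near the level of other CD4 T cells and are given further below. Bcl6 stood at 146 CPM (132 to 162) in members against 86.2 in other CD4 T cells of CD163_NC, and at 70.4 (57.9 to 84.8) against 57.7 in CD163_FL. The Bcl6 intervals of CD163_FL overlap, since that of other CD4 T cells reached 62.1, and after thinning the log2 ratio there was -0.01. Bcl6 is no defining marker in these data, since phagocytes had it at 71.1 and 151 CPM. Tox2, a nuclear factor of follicular helper cells, gave 165 against 59.1 CPM in CD163_NC and 64.7 against 26.1 in CD163_FL. Izumo1r, the folate receptor 4 gene, gave 139 against 75.8 and 54.6 against 29.8 CPM. Tox2 and Izumo1r stayed under 3 CPM in phagocytes. Both also marked Foxp3+ cells, with Tox2 at 140 and 229 CPM and Izumo1r at 295 and 144. In CD163_FL, cells with Il17a, Il17f or Il23r had Bcl6 at 98.6 CPM (81.5 to 118), above the members with intervals that overlap, and Tox2 at 68.9 CPM.

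Counted by cell, Bcl6 was seen in 39.0% and 26.9% of members of CD163_NC and CD163_FL, Tox2 in 40.5% and 19.2%, and Izumo1r in 46.9% and 26.3%. In phagocytes the shares were 42.3% and 56.5% for Bcl6, 1.41% and 1.62% for Tox2, and 0.705% and 0.507% for Izumo1r, so a Bcl6 UMI alone does not set a member apart. Thinned to 2000 UMIs, 46.3% and 25.7% of members held at least 1 of the 3 genes, against 27.0% and 16.8% of other CD4 T cells. At least 2 of the 3 were seen in 13.3% and 4.79% of members and in 4.55% and 1.44% of other CD4 T cells. Phagocytes held at least 2 in 0 of 514 cells and in 0.106%. Most members therefore showed none or 1 of these markers at equal depth.

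**Figure D2:**
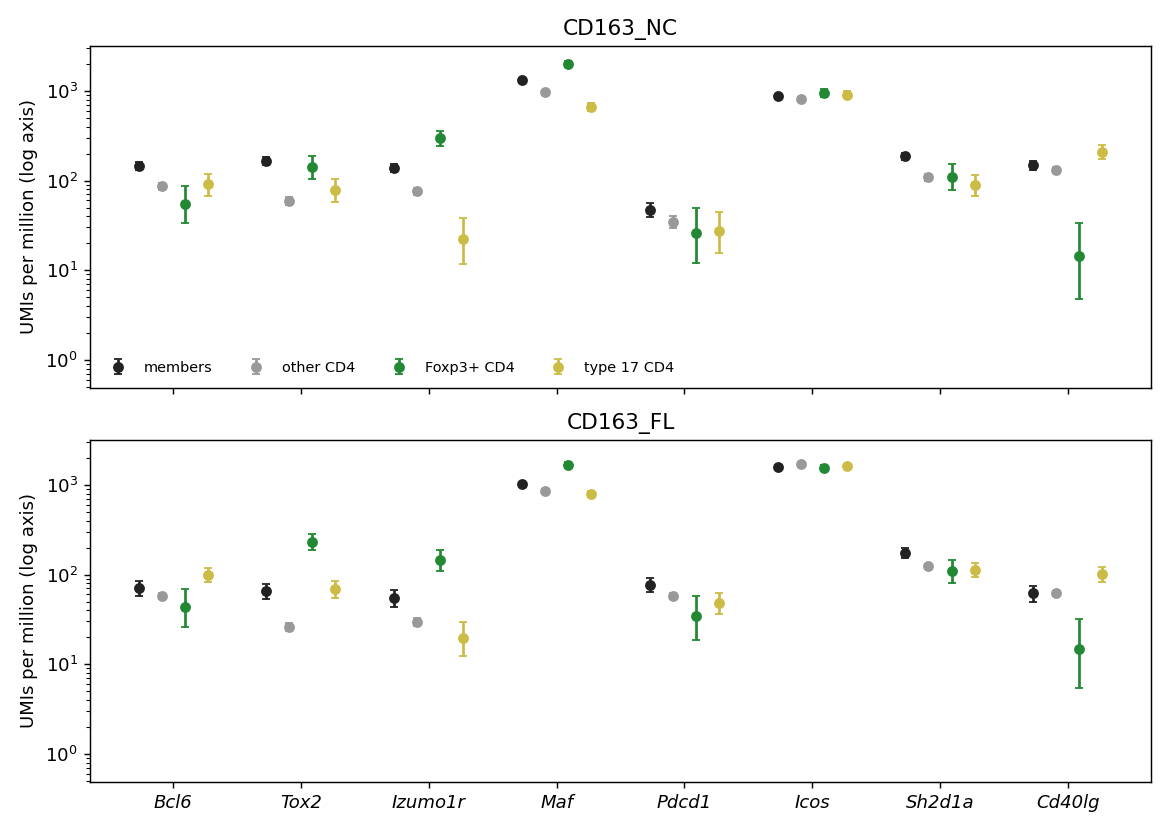
Levels of 8 follicular helper genes outside the rule, in CPM on a log axis, in the members (black), other CD4 T cells (grey), Foxp3+ CD4 T cells (green) and type 17 CD4 T cells (yellow, those with Il17a, Il17f or Il23r) of CD163_NC (top) and CD163_FL (bottom). Points are summed UMIs of 1 library with exact Poisson 95% intervals; Tox2 in members lies above other CD4 T cells in each library, 165 against 59.1 and 64.7 against 26.1.

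Over all genes tested (at least 50 UMIs in members, rule genes left out), 1.17% were at least 1.5-fold higher in members than in other CD4 T cells in both libraries and 0.668% at least 1.5-fold lower, 1.84% in all. Within CD163_NC the shares were 4.49% higher and 2.35% lower, and within CD163_FL 5.31% and 3.84%. The median log2 ratio over all genes was 0.05 in CD163_NC and 0.02 in CD163_FL. The choice of cells shaped this contrast, so it is given as a description. The UMI filter counts members only, so genes low in members can drop out while genes high in members pass. Actn2, Trat1 and Cd55, named below as lower, fell under it. The higher and lower shares, and the list counts below, are therefore not weighed against each other. Of 20 surface and costimulation genes of follicular helper cells, 5 were higher in both libraries and 0 lower, with medians of 0.42 and 0.30. Btla, an inhibitory receptor that binds HVEM, had log2 ratios of 0.77 and 0.84, and Tnfsf8, the CD30 ligand, 0.81 and 0.96. Cd200 gave 1.42 and 0.70. The best known of these receptors differed less: Pdcd1, the PD-1 gene, gave 0.44 and 0.41, and Icos 0.11 and -0.08. Cd40lg, the gene of CD40 ligand, gave 0.18 and -0.01, and Sh2d1a, the adaptor SAP, 0.79 and 0.49.

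Of 14 transcription factors of the program, 2 were higher in both libraries, Tox2 and Tox. Tox stood at 1381 against 616 CPM in CD163_NC and 1199 against 607 in CD163_FL. Maf, which promotes Il21 and Il10 expression, had log2 ratios of 0.46 and 0.23. Of 11 helper cytokine genes outside the rule, 4 were higher in both libraries. Il10 was at 303 against 151 CPM in CD163_NC and 200 against 86.4 in CD163_FL, and Lif, a cytokine of the interleukin-6 family, had log2 ratios of 1.67 and 0.77. Ifng was level in CD163_NC, 453 against 455 CPM, and higher in members of CD163_FL, 576 against 275 CPM.

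Genes of naive and recirculating T cells leaned the other way: 4 of 10 were lower in both libraries and 0 higher, with medians of -0.75 and -0.31. Lef1 stood at 147 against 327 CPM in CD163_NC and 169 against 429 in CD163_FL. Klf2, which maintains the egress receptor S1pr1, had log2 ratios of -0.97 and -0.92. Il7r, the interleukin-7 receptor chain, was at 26.7 against 111 CPM and 34.9 against 80.2.

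By the rule for single genes, 15 genes were eligible as higher and 18 as lower, and those with the largest smaller-of-2-libraries ratio each way are named. Higher were Angptl2, Tox2, Dnase1l3, Dusp14, Il10, Tox, Eea1, Il1r2, Tshz2, Phactr2 and Lag3. Il1r2, a decoy receptor for interleukin-1, had log2 ratios of 1.55 and 0.93. Lag3, an inhibitory receptor, was at 206 against 111 and 117 against 56.2 CPM. Lower were Actn2, St8sia6, Cxcl9, Trat1, Hs3st3b1, Cd55, Znrf3, Il7r, Lef1, Tmem64, Atp8b4 and Dusp10. Trat1, an adaptor of the T cell receptor complex, had log2 ratios of -1.70 and -2.04. Cd55, a complement regulator, had -1.95 and -1.26. Cxcl9 rests on 1 UMI in CD163_NC members and 10 in CD163_FL members.

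**Figure D3:**
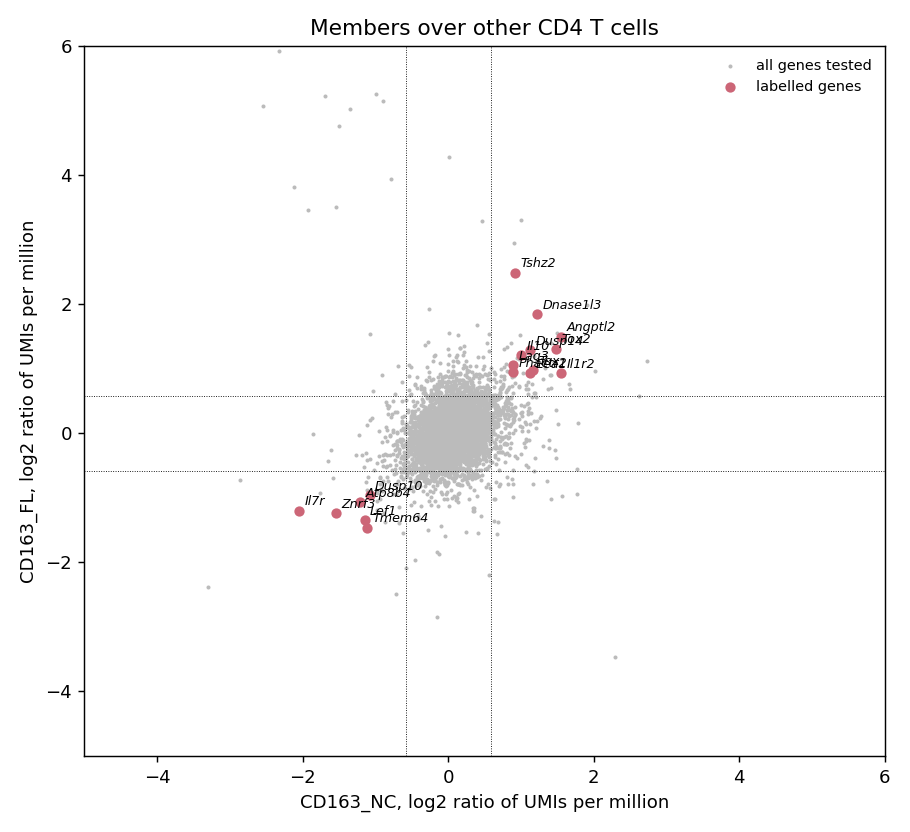
Log2 ratio of CPM in members over other CD4 T cells for each gene tested, in CD163_NC (horizontal) and CD163_FL (vertical), with genes chosen by the rule in red and dotted lines at 1.5-fold. Genes beyond the axes and a few with no value in a library are not drawn. Named genes with under 50 UMIs in members are also absent: Actn2, St8sia6, Cxcl9, Trat1, Hs3st3b1 and Cd55. Tox2 (1.48 and 1.31) lies in the upper right and Il7r (-2.05 and -1.20) in the lower left.

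The members with Cxcr5 and those with Il21 alone differed in more genes than all members did from other CD4 T cells, though the parts hold fewer cells and so carry more counting error. This division was made after seeing the data, by the rule's own genes: members with any Cxcr5 UMI (172 in CD163_NC, 72 in CD163_FL) against members with Il21 alone (169 and 95). Between them, 4.9% of genes were at least 1.5-fold higher with Cxcr5 in both libraries and 3.96% lower, while 2.06% went opposite ways in the libraries. Set against cells with Il21 alone, cells with Cxcr5 held more of Tox2, Bcl6, Tcf7 and naive genes. They held less of the type 1 and gut homing genes, while the follicular helper surface genes went both ways.

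Tox2 was at 261 CPM with Cxcr5 against 58.7 with Il21 alone in CD163_NC, and 134 against 13.2 in CD163_FL. Bcl6 was at 194 against 94 and at 116 against 36.4. Izumo1r was at 198 against 74.7 and 71.6 against 41.9, and its CD163_FL log2 ratio of 0.77 turned to -0.38 after thinning to 2000 UMIs. With Il21 alone, Tox2, Bcl6 and Izumo1r lay near the levels of other CD4 T cells in CD163_NC, and Tox2 and Bcl6 lay below them in CD163_FL. Tcf7, the factor TCF-1 that acts upstream of Bcl6, was at 531 against 145 CPM and 257 against 36.4. The 42 CD163_NC members with both genes had the highest levels, with Tox2 at 363 and Bcl6 at 293 CPM. Their Il21 stood at 495 CPM, against 275 in members with Il21 alone. Thinned, at least 1 of Bcl6, Tox2 and Izumo1r was seen in 64.3% and 44.4% of members with Cxcr5 and in 28.0% and 11.6% of members with Il21 alone, the latter close to or below the other CD4 T cells.

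Of 14 follicular helper transcription factors, 6 were higher with Cxcr5 in both libraries and 2 lower. Of 20 surface genes, 6 were higher and 5 lower, so this list did not move one way: Btla had log2 ratios of 1.14 and 1.34, but Pdcd1 had -1.28 and -1.04. Cd40lg had -0.83 and -0.59, and Icos -0.50 and -0.07. Naive and recirculating genes were higher with Cxcr5 in 5 of 10 cases and lower in 0, with medians of 0.88 and 0.78. Against other CD4 T cells, their median was -0.27 and 0.09 with Cxcr5 and -1.52 and -1.41 with Il21 alone. The contrast thus lay mostly in low levels with Il21 alone. Ccr7, the receptor that guides T cells to the T zone, was at 133 against 7.55 CPM in CD163_NC and 207 against 18.8 in CD163_FL. In CD163_FL 1 cell held 45.3% of the Ccr7 UMIs of the Cxcr5 cells, and the log2 ratio there went from 3.47 to 2.53 without called doublets. S1pr1 had log2 ratios of 2.21 and 0.59. Gpr183, a guidance receptor for oxysterols at the follicle border, had 1.19 and 1.36.

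Among 16 type 1 helper genes, 11 were lower with Cxcr5 in both libraries and 0 higher, with medians of -1.38 and -0.90. Ifng was at 148 CPM with Cxcr5 against 791 with Il21 alone in CD163_NC, and 175 against 873 in CD163_FL. Gzmb, granzyme B, was at 120 against 472 and 227 against 987 CPM. Ccl5, a chemokine of effector T cells, was at 390 against 3102 and 1298 against 2856 CPM. Tbx21, the type 1 factor T-bet, had log2 ratios of -1.27 and -1.19. Against other CD4 T cells, the median of this list was -1.23 and -0.68 with Cxcr5 and 0.36 and 0.19 with Il21 alone.

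Of 10 gut homing and retention genes, 5 were lower with Cxcr5 in both libraries and 0 higher. Against other CD4 T cells, their median was -0.88 and -0.99 with Cxcr5 and 0.31 and -0.11 with Il21 alone. Cxcr6, a receptor of tissue-resident T cells, was at 38.6 against 286 CPM and 337 against 879. Ccr9, the receptor for the intestinal chemokine CCL25, had log2 ratios of -2.77 and -2.45. Of 12 antagonists of the follicular program, 3 were lower and 2 higher: Prdm1 was at 15.9 against 107 CPM in CD163_NC and 76.1 against 151 in CD163_FL. Il2ra, whose signal opposes Bcl6, had log2 ratios of -3.34 and -1.81. Cytokines other than Il21 also sat with Il21 alone, 3 of 11 lower with Cxcr5 and 0 higher, and Lag3 had log2 ratios of -1.52 and -1.15.

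**Figure D4:**
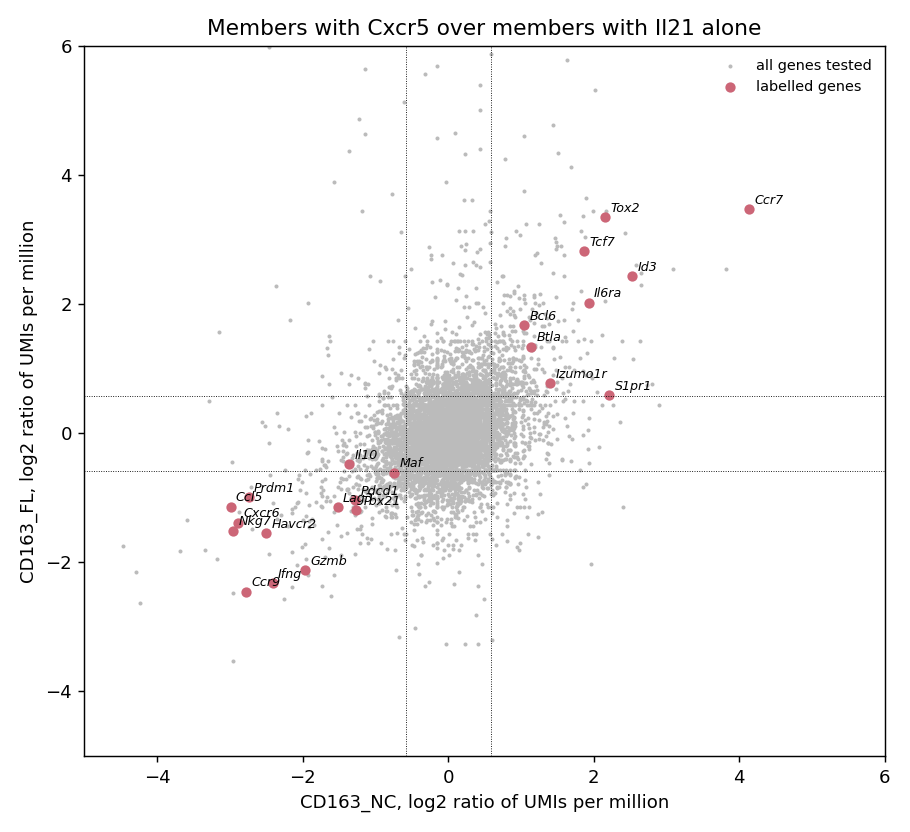
Log2 ratio of CPM in members with any Cxcr5 UMI over members with Il21 alone for each gene tested, in CD163_NC (horizontal) and CD163_FL (vertical). Genes picked by hand are in red, and dotted lines lie at 1.5-fold. The red genes are not whole lists: Icos and Cd40lg, for example, are not among them. Genes beyond the axes are not drawn; Ccr7, Tox2, Tcf7 and Bcl6 lie in the upper right, and Ifng, Gzmb, Cxcr6 and Prdm1 in the lower left.

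By the single gene rule applied to this division, 45 genes were eligible as higher and 58 as lower. The leading ones with Cxcr5 were Tnfrsf26, Nav2, Tox2, Adk, Lrig1, Acsl3, Aff3, Tcf7, Cmah, Dnase1l3, Pak1 and Shld1. Tnfrsf26 had log2 ratios of 2.64 and 2.48, and Aff3, a nuclear factor of lymphocytes, 1.88 and 3.04. With Il21 alone they were Ermn, Serpina3f, Neb, Ccr9, Ifng, Adam8, Tmem163, Sla2, Gzmb, Serpina3g, Hip1 and Sv2c. Ermn had 0 UMIs with Cxcr5 in CD163_NC, so its log2 ratio of -2.95 there is a bound against a floor of 3 counts. Serpina3g, a serine protease inhibitor of activated lymphocytes, had log2 ratios of -3.18 and -1.95.

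Markers of other cells moved with part of this division and their share in it was not tested. In CD163_FL, 5 of 5 tested B cell markers were higher with Cxcr5 (median 2.64), as were 7 of 10 phagocyte markers (2.11) and 5 of 5 epithelial markers (6.68). A single member with Cxcr5 held 297 of the 301 Krt8 UMIs of that part. In CD163_NC it was 1 of 5 B cell markers (0.44), and the phagocyte median was 0.17, and 3 of 5 epithelial markers were higher (0.59). Of all 7191 genes tested, 1110 were at least 1.5-fold higher with Cxcr5 and 986 lower within CD163_FL. Within CD163_NC these numbers were 883 and 827. When cells with any UMI of Cd79b, Ms4a1, Lyz2, Csf1r, Cd14, C1qa or Epcam were left out, the medians of type 1 helper genes were -1.81 and -0.67 and those of naive and recirculating genes 1.10 and 0.80. Under that choice Tox2 had log2 ratios of 2.21 and 3.79, Bcl6 0.89 and 1.62, and Ifng -3.27 and -2.50. The B cell median in CD163_FL was then still 2.38.

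Between the libraries, 11.4% of the genes tested in members were higher in CD163_FL by 1.5-fold or more and 12.3% lower by as much, 23.7% in all, with a median log2 ratio of 0.04. In other CD4 T cells the shares were 10.8% and 9.74% and the median 0.06. Most group shifts were of like size in both populations, so each is given beside its value in the other CD4 T cells. The difference between the populations was not tested.

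Follicular helper transcription factors were lower in CD163_FL members in 8 of 14 cases and higher in 1, with a median of -0.61. In other CD4 T cells it was 4 lower and 1 higher, with a median of -0.43. Bcl6 had a log2 ratio of -1.06 (-1.38 to -0.75) in members and -0.58 in other CD4 T cells. Tox2 had -1.35 and -1.18, Izumo1r -1.35 and -1.35, and Tcf7 -1.42 and -1.16. Maf differed less, with -0.39 in members. Of 12 antagonists, 4 were higher and 1 lower in members, against 2 and 1 in other CD4 T cells. Prdm1 had 1.02 (0.70 to 1.34) in members and 0.57 in other CD4 T cells, and Il2ra 1.20 and 0.97.

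Of 20 surface and costimulation genes, 7 were lower in CD163_FL members and 2 higher, with a median of -0.13 against -0.31 in other CD4 T cells. Cd40lg was at 147 and 61.5 CPM in members, and the other CD4 T cells had a log2 ratio of -1.07. Cd200 had -1.03 (-1.78 to -0.34) in members and -0.32 in the others. Icos was higher, 869 and 1599 CPM in members, and so was Pdcd1, 47.0 and 76.8 CPM. The others shared these, with log2 ratios of 1.07 for Icos and 0.73 for Pdcd1.

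Cytokine genes were lower in CD163_FL in 6 of 11 cases and higher in 1, in members (median -0.60) as in other CD4 T cells (median -0.64). Il10 was at 303 and 200 CPM in members. Tnf had a log2 ratio of -1.90 (-2.46 to -1.38) in members and -0.76 in the others. Ifng stood apart in direction, 0.35 (0.22 to 0.47) in members against -0.73 in other CD4 T cells, a difference that was not tested. In CD163_FL 1 member held 17% of the Ifng UMIs, and within the parts the Ifng log2 ratio was 0.23 (-0.11 to 0.57) with Cxcr5 and 0.14 (0.003 to 0.28) with Il21 alone. Csf2, the GM-CSF gene, had 84 UMIs in CD163_NC members and 2 in CD163_FL members, but 1 cell held 64.3% of the 84.

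Type 1 genes were higher in CD163_FL members in 6 of 16 cases and lower in 2, median 0.41, the same median as in other CD4 T cells. Gut homing genes were higher in 4 of 10 cases and lower in 0, median 0.53, against 6 of 10 and a median of 0.67 in other CD4 T cells. Cxcr6 was at 156 and 649 CPM in members and at 178 and 714 in other CD4 T cells. Itga4, the integrin alpha 4 chain, was at 335 and 731 CPM in members. Naive genes were mixed, 3 higher and 2 lower of 10, with S1pr1 at 36.6 and 106 CPM and Klf2 at 229 and 121 in members. The median of this list was 0.29 in members and -0.25 in other CD4 T cells, where 3 were higher and 3 lower.

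Stress, interferon and receptor-induced genes were lower in CD163_FL in both populations. Dissociation stress genes, induced when tissue is digested, were lower in CD163_FL members in 13 of 16 cases, median -1.27, and in 14 of 16 in other CD4 T cells, median -1.49. Fos was at 394 and 44.4 CPM in members and Junb at 3636 and 1510. Interferon response genes were lower in 9 of 17 cases and higher in 2, median -0.79 against -0.68. Ifi27l2a was at 4272 and 901 CPM and Isg15 at 301 and 151. Genes induced by the T cell receptor and checkpoint genes were lower in 9 of 14 cases and higher in 3, median -0.84 against -0.76, with Nr4a1 at 377 and 176 CPM. How far stress during dissociation moves with the activation genes was not tested.

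**Figure D5:**
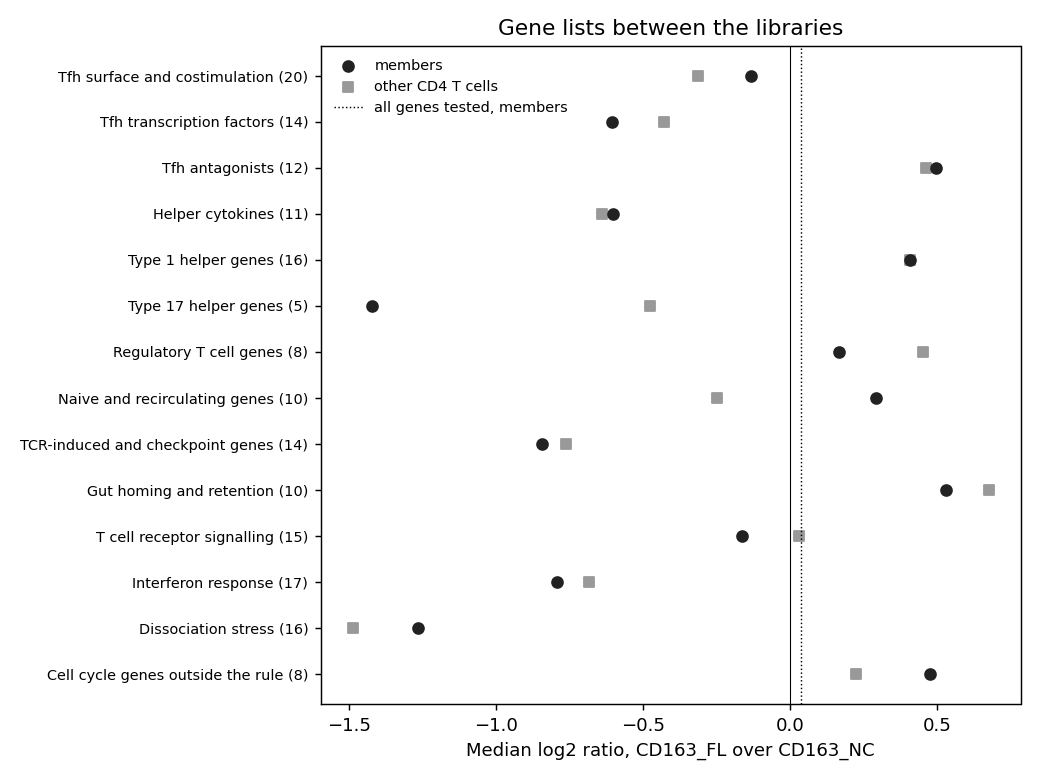
Median log2 ratio of CD163_FL over CD163_NC for each gene list with at least 5 genes tested (number tested in brackets), in members (black circles) and other CD4 T cells (grey squares), with the median over all genes tested in members as a dotted line. The lists of stress, interferon and receptor-induced genes lie left of 0 in both populations, at -1.27 and -1.49 for stress, and gut homing and type 1 genes lie right of 0.

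Named by size alone, the 12 genes leading in CD163_FL members were mostly epithelial: Ankrd35, Tmem45b, Sprr2a3, Upp1, S100a16, Sycn, Kazn, Ckmt1, Wfdc2, Lmo7, Cldn3 and Slc7a8. A single CD163_FL member of 31694 UMIs held 1112 of the 1138 UMIs of epithelial markers among members (97.7%) and was the top cell for 9 of the 12 genes. For 11 of the 12, 1 cell held over 50% of the UMIs. The doublet caller did not mark it. Slc7a8 was the least concentrated, with 39.3% of its UMIs in its top cell and 8 members holding it. Without the member rich in epithelial UMIs, Cldn3 reversed to -1.62 and Sycn to -1.62, both on very few UMIs. Cldn3 had 47 UMIs in CD163_FL members, 97.9% of them in 1 cell, and 5 in CD163_NC members. Sycn had 93, 98.9% of them in 1 cell, and 5. The 12 genes leading in CD163_NC were Ccl12, Ifit3, Kif27, Oas2, Phf11d, Sostdc1, C1qa, Clec4a3, Csf2, C1qc, Apoe and Exoc3l2. Several of these were also concentrated. The top CD163_NC member of each gene held 68.7% of the Apoe UMIs, 52.8% for C1qc and 48.5% for C1qa. It held 95.8% for Kif27, 90% for Exoc3l2 and 52% for Ccl12, but 11.6% for Ifit3 and 14.6% for Sostdc1. C1qa, C1qc and Apoe are macrophage genes, and 9 of 10 tested phagocyte markers were lower in CD163_FL members (median -2.65) and 7 of 10 in other CD4 T cells (-1.46). Their summed level in members was 639 and 202 CPM, with none of the list at 0 in either library, against 7121 and 1307 CPM over all kept barcodes.

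A second reading, chosen after seeing the data, kept genes with at most 25% of the UMIs of the higher library in 1 cell. It left 218 genes eligible as higher in CD163_FL members and 238 as lower. Higher were Galnt3, Il1rl1, Cpd, Bend4, Ctla2a, Gpc1, Slc41a2, Ctla2b, Acyp2, Ndrg1, Lancl3 and Fhl2. Il1rl1, the interleukin-33 receptor ST2, was at 4.78 CPM in CD163_NC members and 52.7 in CD163_FL members, a log2 ratio of 3.46 (2.58 to 4.47) against 2.10 in other CD4 T cells. Ctla2a was at 52.5 and 299 CPM, a log2 ratio of 2.51 against 1.71. Lower were Ifit3, Oas2, Sostdc1, Fbn2, Jaml, Ica1l, Tmem106a, Epb41l5, Sh3gl3, Tmem191c, Fos and Cmpk2. Sostdc1, a secreted antagonist of BMP and Wnt signals, had 171 UMIs in CD163_NC members and 3 in CD163_FL members, 68.1 and 1.90 CPM, a log2 ratio of -5.16 (-7.45 to -3.59). Other CD4 T cells had 10.2 and 0.879 CPM. Ifit3, an interferon-induced gene, had 43 UMIs in CD163_NC members and 0 in CD163_FL members, a log2 ratio of at most -3.17 against a floor of 3 counts.

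RNA of other cells was present in a minority of members. At least 1 UMI of Cd79b, Ms4a1, Lyz2, Csf1r, Cd14, C1qa or Epcam was seen in 27.0% of CD163_NC members and 19.8% of CD163_FL members, against 23.1% and 19.4% of other CD4 T cells. Scrublet called 3 (0.880%) and 8 (4.79%) of the members doublets. The libraries shared 41 kept barcodes, none of them shared as a member by both. Mitochondrial genes took a median of 1.64% and 2.32% of member UMIs.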

How the data were processed

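Expression was measured by 10x 3' single-cell RNA-sequencing in 2 libraries of sorted colon CD45+ cells. The deposited matrices hold UMI counts per gene and barcode, made by the authors with Cell Ranger 7.1.0 per the file headers, on mm10 per the submitters' processing notes, which also name Seurat 4; no further normalization was applied to the counts. From these counts, barcodes with at least 500 UMIs, at least 200 genes and at most 10% mitochondrial UMIs were kept. Members and gene lists were chosen with earlier results of these data known. UMIs were summed per library and cell gate and given as CPM, scaled to a common total per group. Genes with at least 50 UMIs in members were compared, and a gene at or beyond 1.5-fold was counted. Single genes were named, up to 12 each way, by the largest ratio among those with at least 20 UMIs in the higher group and a 95% interval beyond 1.5-fold. For members against other CD4 T cells this had to hold in both libraries, and between libraries the level in members had to reach 0.5 times that over all kept barcodes. Left out of naming were mitochondrial, ribosomal, sex-linked, receptor-segment and immunoglobulin genes, unnamed models and rule genes. The division by Cxcr5, the limit of 25% in 1 cell and the barcode rich in epithelial RNA were chosen after seeing the data, as was the set of other-cell genes used to leave out cells, which replaced a planned longer set. Intervals are exact binomial (Clopper-Pearson), exact Poisson, conditional binomial for ratios of counts and log-normal for ratios of shares; all cover counting error only. Ratios with a group at 0 used a floor of 3 counts. Doublets were called with Scrublet in scanpy 1.11.5 but kept in the main values. Work was done in Python 3.11.15 with numpy 2.4.6, scipy 1.17.1 and pandas 2.3.3. The ratio calculation was tested on simulated counts. A few named items and the results that need them are not reported here. Alternatives changed the barcode filter, gate, scaling, depth, doublets and low-count filter.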

Additional observations from a re-analysis of the deposited data

Results flagged for a closer look

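Some genes were at least 1.5-fold apart between members and other CD4 T cells in opposite directions in the libraries. The difference between the libraries was not tested for any of them. Csf2 had a log2 ratio of members over other CD4 T cells of 2.29 in CD163_NC and -3.47 in CD163_FL, and Cd14, a monocyte marker, 0.67 and -1.56. The other 6 are epithelial genes. Ckmt1 had -2.32 and 5.92, Cldn3 -1.69 and 5.22, and Epcam -1.93 and 3.46. Krt19 had -0.90 and 5.15, Krt8 -0.99 and 5.25, and Lgals4 -1.50 and 4.76. In CD163_FL, 1 member held 97.7% of the UMIs of epithelial markers.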

How the results depend on the processing

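The lower share of members in CD163_FL kept its direction in each alternative run. The ratio over kept barcodes was 0.198 with at least 2 UMIs of Cxcr5 and Il21, 0.242 thinned to 2000 UMIs and 0.208 thinned to 1000. Over CD4 T cells it was 0.169 with at least 2 UMIs and 0.349 with no limit on Mki67 and Top2a. The number of genes tested was 7198 in the main analysis, 3496 thinned, 9304 with at least 20 UMIs and 12742 with 1 UMI in each group. Counts of genes beyond 1.5-fold follow the number tested in each run and are to be read against it. In the main analysis 818 genes were higher and 886 lower in CD163_FL members. Members against other CD4 T cells gave 84 and 48 there, and cells with Cxcr5 against Il21 alone 352 and 285. Thinned to 2000 UMIs, the counts were 486 higher and 406 lower in CD163_FL members. They were 43 and 19 for members against other CD4 T cells, and 208 and 188 for cells with Cxcr5 against Il21 alone. With 1 UMI in each group they were 2447, 2719, 633, 339, 778 and 484 in that order. With at least 20 UMIs, 1585 genes were lower in CD163_FL members, members against others gave 178 and 100, and 586 genes were higher with Cxcr5. Among the genes named by the rule and the list medians, signs of values at least 1.5-fold apart in the main analysis reversed as follows. Sign changes of smaller values are not listed here. The reversals of Izumo1r and Bcl6 after thinning are given beside their values. Cldn3 between libraries was -1.13 without cells holding UMIs of other cell types and -1.62 without the barcode rich in epithelial RNA. Sycn was -0.14 with at least 2 UMIs of Cxcr5 and Il21, -0.28 without cells holding UMIs of other types and -1.62 without that barcode. These reversed values of Cldn3 and Sycn rest on few UMIs, since each gene had only 5 in all CD163_NC members. Exoc3l2 was 0.46 without cells holding other types' UMIs and 0.021 thinned. The median of epithelial markers between libraries went from 3.28 to -1.14, -2.23 and -2.30 under these same choices in the order given for Sycn. That of type 17 genes in members went from -1.42 to 0.19 without cells holding other types' UMIs. In other CD4 T cells the main type 17 median was -0.48. Members over other CD4 T cells in CD163_FL had a phagocyte median of -1.30, which became 0.22 when thinned. The epithelial median there went from 5.15 to -0.36 without cells holding other types' UMIs and to -0.65 without that barcode. The cause was not tested. The 90 list medians and 145 values of named genes were each computed again under the alternatives, and the next counts are of these repeats. Apart from reversals, 580 repeats of list medians stayed within 1 standard error over the list's genes and 97 did not. Of the repeats for named genes, 912 stayed within the counting interval and 156 did not. No paired analysis was possible because each group is 1 library. The smaller number of members limits the CD163_FL values of genes under 20 UMIs, and all differences between libraries lack a replicate.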

Other observations

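Genes of type 2 helper cells are described here as values. In members, 3 of 3 tested genes were higher in CD163_FL than in CD163_NC (median 1.34), and 2 of 3 in other CD4 T cells (0.92). Areg, the growth factor amphiregulin, was at 97.1 CPM in CD163_NC members and 246 in CD163_FL members, while other CD4 T cells had 87.0 and 98.1. Gata3, the type 2 factor, was at 47.8 and 77.4 CPM in members and 59.3 and 113 in the others.

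Regulatory T cell genes other than Foxp3, which the rule removed, were present in members. Ctla4 was at 1623 CPM in CD163_NC members and 1830 in CD163_FL members, against 1150 and 1542 in other CD4 T cells. Ikzf2, the factor Helios, was at 605 and 544 CPM in members against 303 and 438 in the others. T cell receptor beta variable segments were counted in 64 of 341 and 34 of 167 members, and Trbv12-2 was seen in 12 and 8 of these cells, too few to compare repertoires.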
